A study of Mus musculus with 9 samples.

Results

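In dendritic cells (DCs) sorted from mouse spleen, 81 protein-coding genes were lower in both leukemic groups (T-DCs and T-mDCs) than in mature DCs of normal spleen (N-mDCs), and by a like amount in both. They were selected on measured values. Each had at least 3 FPKM in every sample of normal mature DCs, its lowest normal sample was at least 1.5 times its highest leukemic sample, and the means of the leukemic groups lay within 2-fold of each other. FPKM is the number of reads on a gene, scaled to the length of the gene and to the depth of the library. Of 54532 genes in the table, 22046 were protein-coding and 7422 of these had the 3 FPKM in every normal sample. The ratio of 1.5 was met by 149 of the 7422 (2.01%). The window on the leukemic means removed 56 genes that were lower still in T-DCs and 10 that were lower still in T-mDCs, which left 83. Symbols starting with Gzm, Klr, Cd3, Ccl or Cxcl were then dropped, which removed Cd300c and Ccl24, and 81 genes remained. The values that chose these genes are the same values that compare the groups, so their differences are a description and were not tested.

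RNA was sequenced in bulk from splenic DCs of 3 groups with 3 samples each. N-mDCs were mature conventional DCs of healthy mice that received no treatment. T-mDCs were mature conventional DCs of mice with T cell acute lymphoblastic leukemia (T-ALL), and T-DCs were CD11c+ cells with low surface MHCII from such mice, called immature DCs in the labels. The study used young adult female C57BL/6J and C57B6.SJL mice, and the strain and number of mice behind each sample are not given in the sources used here. Leukemia was made by a retrovirus that carried the intracellular domain of Notch1 and GFP into bone marrow cells of C57BL/6J mice, and GFP+ leukemia cells were then passed to recipients that were not irradiated. Cells were taken at the late stage of disease, after lysis of red blood cells and, for T-DCs, enrichment of CD11c+ cells on beads. T-DCs were gated among GFP- cells without lymphocyte lineage markers, CD3 and NK1.1 among them, so low MHCII and the absence of such markers were part of how that group was defined. Whether the mature DC groups passed the same lineage gate is not given in the sources used here. The labels do not say that samples of a group came from separate mice, so the spread between them may be technical.

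Conventional DCs take up antigen, carry it on MHCII and present it to T cells. AP-1 is a family of transcription factor dimers built from Jun and Fos proteins. Cyclic AMP (cAMP) acts through protein kinase A on CREB, a transcription factor that binds the cAMP response element (CRE), and one of its targets, Crem, encodes CREB-related activators and repressors.

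Reads on genes ranged from 15360815 to 18440913 per sample, and a single read on 1 kilobase of gene gave 0.0517 to 0.0659 FPKM. T-mDC samples 2 and 3 lay nearest together, with a chi-square per gene of 1.80, whereas all other pairs within a group gave 5.45 or more. When both were averaged into 1 sample, 91 genes met the rule and 80 of the 81 were among them. Defining DC markers were present: all 6 conventional DC markers (Itgax, Flt3, Zbtb46, H2-Ab1, Cd74 and Dpp4) exceeded 1 FPKM in every sample. These 6 summed to 13062 to 19518 FPKM in N-mDCs, to no more than 1841 FPKM in T-DCs and to 8752 to 12274 FPKM in T-mDCs. The 12 erythroid markers summed to 58953 and 43356 FPKM in T-DC samples 2 and 3, 618 in T-DC sample 1 and at most 5368 elsewhere. The 10 neutrophil markers summed to 4366 and 1536 FPKM in T-DC samples 2 and 3 and to at most 710 elsewhere. The 10 monocyte markers summed to 1695, 1386 and 858 FPKM in T-DCs, 588 to 941 in N-mDCs and 305 to 606 in T-mDCs. The 11 red pulp macrophage markers summed to 4144, 1342 and 817 FPKM in T-DCs, 2434 to 4787 in N-mDCs and 564 to 1939 in T-mDCs. The part of these cells in the differences below was not tested, and in bulk samples fewer cells of a type and less RNA per cell cannot be told apart.

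Over the 81 genes, the N-mDC mean ranged from 3.27 to 1467 FPKM with a median of 22.0 FPKM. The N-mDC mean exceeded the T-DC mean by a median of 4.04-fold (1.77 to 17.5) and the T-mDC mean by a median of 3.23-fold (1.71 to 21.1). Over all 7422 genes with the same floor, the medians of these folds were 0.957 and 0.993. Among all 12746 genes with enough signal to test, every N-mDC sample was above all 6 leukemic samples in 849 (6.66%), a state that the rule imposed on each of the 81. Normal samples were about as scattered for these genes as for others, with a median coefficient of variation of 18.7% against 18.3% over the 7422. None of the 81 was at 0 in any sample. Areg, Col14a1, Plekhg6, Spry2, Prg3 and Lynx1 reached 1 FPKM in 3 samples only through the N-mDCs.

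**Figure D1:**
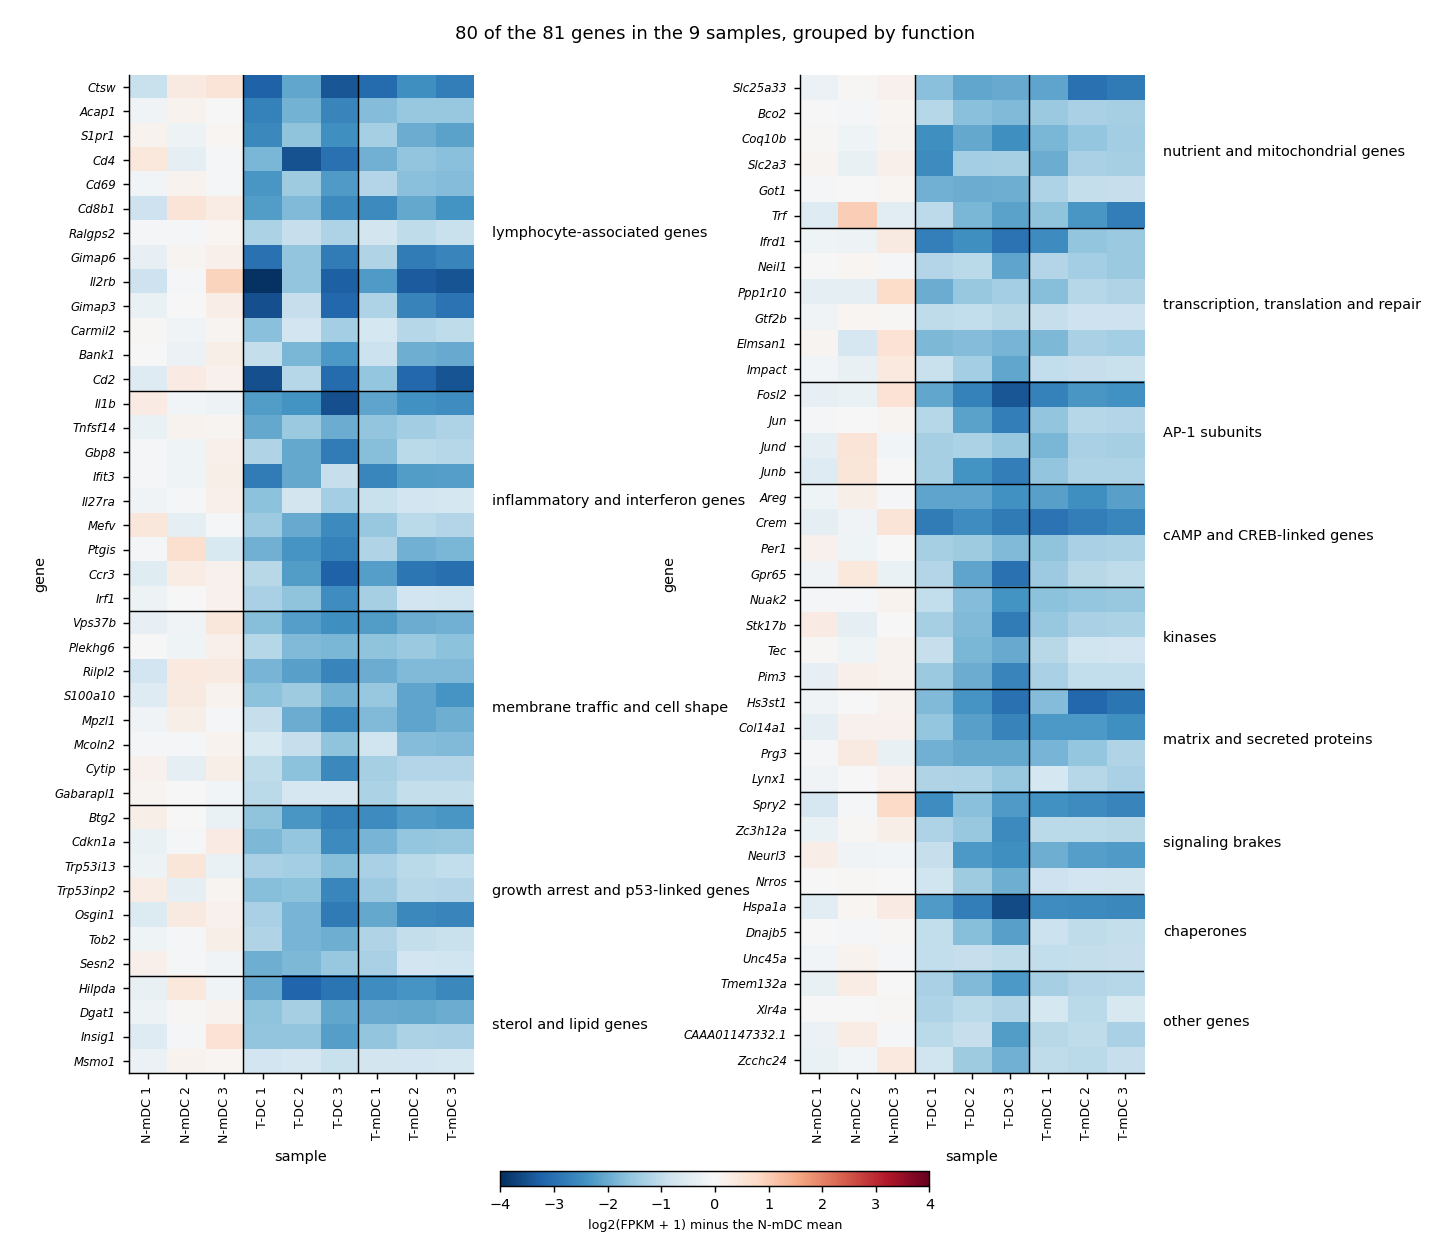
Heat map of 80 of the 81 genes (rows, grouped by function) in the 9 samples (columns). Color gives log2(FPKM + 1) minus the N-mDC mean of that gene; blue is below that mean. By the selection rule, all 6 leukemic columns are blue in every row, and the deepest blue falls on Il2rb in T-DC sample 1 and on Hspa1a and Il1b in T-DC sample 3.

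Areg and Crem, both linked to cAMP, were separated the most of the 81 genes by the ratio of the lowest N-mDC sample to the highest leukemic sample. Areg (ENSMUSG00000029378, chr5:91139599-91148432 on mm10) encodes amphiregulin, a secreted ligand of the EGF receptor. Areg was 4.26, 5.98 and 4.58 FPKM in N-mDC samples 1 to 3, 0.368, 0.372 and 0.108 FPKM in the corresponding T-DC samples and 0.305, 0.0852 and 0.313 FPKM in the T-mDC samples. The 3 N-mDC samples lay within 1.5-fold of each other, and the lowest of them was 11.5 times the highest leukemic sample. At its low level the leukemic values rested on few reads, as low as 2 in a sample, with 17 reads over the T-DC samples and 16 over the T-mDC samples. Crem was 10.4, 12.3 and 20.1 FPKM in N-mDCs, with 1.12, 1.62 and 1.05 in T-DCs and 0.890, 1.15 and 1.39 in T-mDCs. Every leukemic sample had less than 2 FPKM of Crem, and the leukemic groups overlapped. Crem averaged 14.3 ± 5.18 FPKM (SD, n = 3) in normal cells, 1.26 ± 0.311 in T-DCs and 1.14 ± 0.252 in T-mDCs. Per1, a repressor of the circadian clock that is also induced through CREB, was 138, 109.9 and 123 FPKM in the N-mDC samples, 48.6, 45.7 and 35.3 in the T-DC samples and 39.6, 49.9 and 50.9 in the T-mDC samples. Gpr65, a proton-sensing receptor that raises cAMP, was 51.9, 78.6 and 47.7 FPKM in N-mDCs, against 25.1, 12.6 and 6.398 in T-DCs and 20.7, 26.3 and 27.9 in T-mDCs. For both Per1 and Gpr65 the leukemic groups overlapped, although for Gpr65 T-DC samples 2 and 3 lay below every T-mDC sample.

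Promoters show, for genes with an entry, which carry the CRE in its full form. Of the 81 genes, 54 matched by symbol an entry of the RefSeq promoter table (GRCm38.p6, 250 bases before to 50 after the start). The rest of the 81 were not searched for these or the other letters below. TGACGTCA, which reads the same on both strands, was present in 3 of the 54 (Areg, Btg2 and Trp53inp2, 5.56%) and in 2.03% of all 27025 genes of the table. The 250 bases before the start of Areg and Btg2 are printed 5′ to 3′ on the strand of the gene, with the CRE in capitals, from chr5:91139349-91139598 (plus strand) and chr1:134079156-134079405 (minus strand).
Areg: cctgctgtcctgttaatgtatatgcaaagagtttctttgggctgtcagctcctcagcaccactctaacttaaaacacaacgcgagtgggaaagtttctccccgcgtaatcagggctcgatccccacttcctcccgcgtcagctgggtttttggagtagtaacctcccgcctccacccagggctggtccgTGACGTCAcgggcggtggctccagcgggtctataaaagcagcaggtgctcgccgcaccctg
Btg2: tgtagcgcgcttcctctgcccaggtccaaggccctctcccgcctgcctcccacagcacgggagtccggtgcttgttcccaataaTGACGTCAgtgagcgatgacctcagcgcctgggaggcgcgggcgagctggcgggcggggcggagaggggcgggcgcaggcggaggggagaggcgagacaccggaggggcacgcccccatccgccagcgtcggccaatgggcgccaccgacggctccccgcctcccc
The CRE began 61 bases before the start of Areg and 166 bases before that of Btg2. The AP-1 letters TGANTCA were present in 6 of 54 (11.1%) and in 8.97% of all genes. A match of letters is a description of the sequence and no measurement of binding.

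AP-1 subunits were among the most abundant of the 81 genes. Junb (ENSMUSG00000052837, chr8:84974484-84978718 on mm10), the most abundant of the 81 genes in N-mDCs, was 996, 1984 and 1421 FPKM in N-mDCs, with 559, 270.3 and 208 in T-DCs and 468, 601 and 597 in T-mDCs. N-mDC sample 2 was about 2 times sample 1, yet even sample 1 stood 1.66 times above the highest leukemic sample. Jun was 717, 744 and 807 FPKM in the N-mDC samples, 341, 171 and 111 in the T-DC samples and 249.8, 339 and 338 in the T-mDC samples. Jund was 268, 507 and 327 FPKM in N-mDCs, against 139, 146 and 123 in T-DCs and 98.2, 144 and 141 in T-mDCs. Fosl2, which encodes the Fos family protein Fra-2, was 36.8, 38.0 and 69.3 FPKM in N-mDCs, with 10.2, 6.28 and 3.40 in T-DCs and 6.23, 8.28 and 7.76 in T-mDCs. Fosl2 was the most separated of these subunits, with an N-mDC mean 7.26 times the T-DC mean and 6.47 times the T-mDC mean, and N-mDC sample 3 was well above the other normal samples. In all 4 genes the lowest T-DC sample was sample 3 and the lowest T-mDC sample was sample 1. Over the 7422 genes with the same floor, T-DC sample 3 was the lowest in 44.5% and T-mDC sample 1 in 49.0%. With Crem, the 4 AP-1 subunits made 5 of the 81 (6.17%) members of the bZIP transcription factor family, to which 33 of the 7422 genes with the same floor belonged (0.445%).

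Genes that restrain growth or respond to p53 formed a group of 7. Btg2, an antiproliferative gene that is both an immediate early gene and a p53 target, was 1054, 900.1 and 739.5 FPKM in the N-mDC samples, 288, 175 and 135 in the T-DC samples and 155, 182 and 176 in the T-mDC samples. It was the second most abundant of the 81 genes in N-mDCs, and its leukemic samples ranged from 135 to 288 FPKM with both groups overlapping. Sesn2, a stress-induced regulator of mTORC1, was 46.3, 38.9 and 37.0 FPKM in N-mDCs, against 9.74, 11.1 and 13.7 in T-DCs and 16.1, 23.6 and 22.8 in T-mDCs. For Sesn2 every T-DC sample lay below every T-mDC sample. Cdkn1a, the cell cycle inhibitor p21, ranged over 38.4 to 58.8 FPKM in N-mDCs and 7.17 to 15.7 FPKM in leukemic samples. The related genes Tob2 (39.9 to 53.5 against 10.9 to 24.1 FPKM), Trp53inp2 (11.4 to 19.4 against 1.68 to 6.41 FPKM), Trp53i13 (6.64 to 11.9 against 1.86 to 3.68 FPKM) and Osgin1 (15.8 to 30.5 against 2.46 to 8.98 FPKM) completed the group. Here and for other genes given by 2 ranges, the first is that of N-mDCs and the second that of all 6 leukemic samples. Osgin1, a gene of the oxidative stress response, was lower in T-mDCs (6.715-fold) than in T-DCs (4.25-fold), and so was Btg2, while the other 5 were lower in T-DCs.

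**Figure D2:**
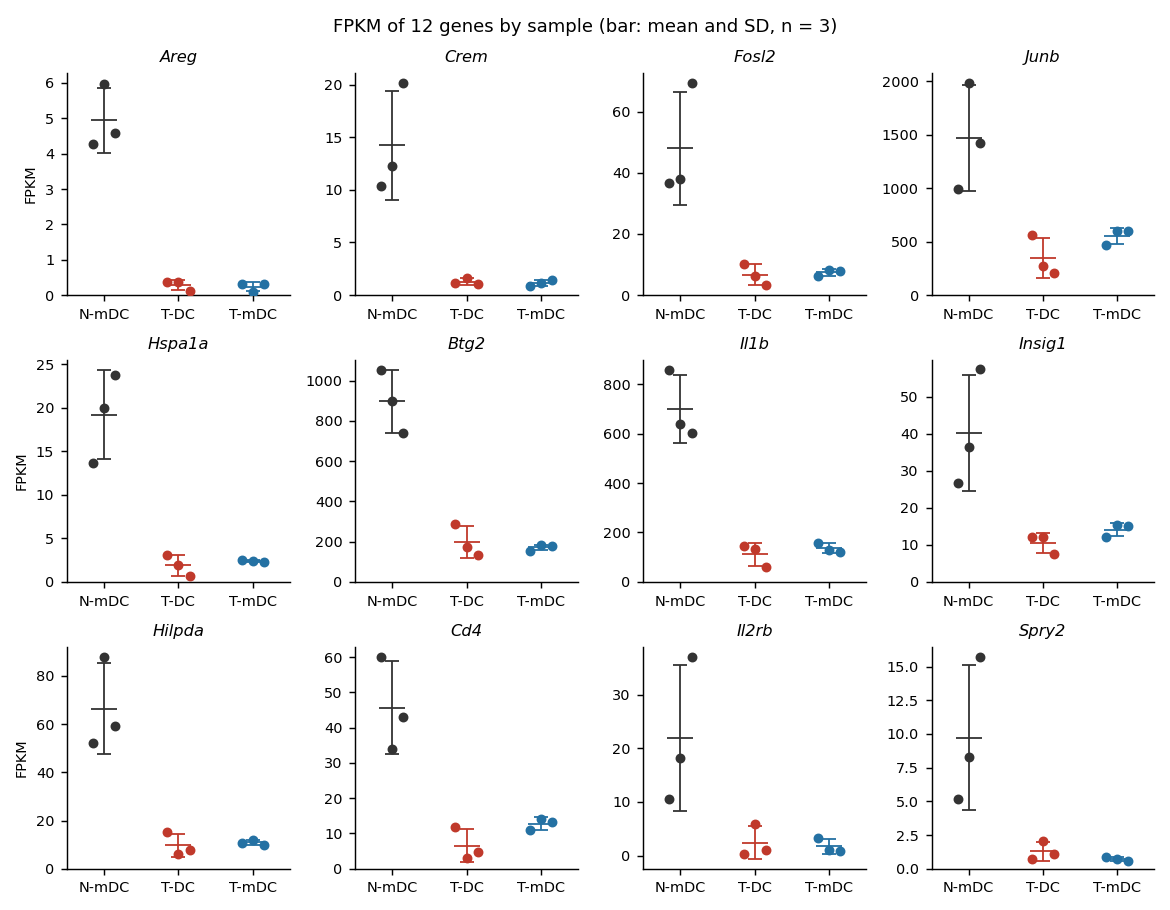
FPKM (vertical axes, linear) of 12 of the genes in each of the 9 samples; points are samples, horizontal bars the group mean and whiskers the SD (n = 3 per group). In every panel the 3 black N-mDC points lie above all red T-DC and blue T-mDC points, which the rule required, and the red and blue points overlap in each panel.

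Among chaperones, Hspa1a, the inducible Hsp70, was 13.7, 20.01 and 23.8 FPKM in N-mDCs, with 3.12, 1.89 and 0.666 in T-DCs and 2.54, 2.41 and 2.31 in T-mDCs. T-DC sample 3 was the lowest, and the T-mDC samples lay within 10% of each other. Hspa1a has a near-identical neighbor, Hspa1b, and reads could be split between them, so its level is uncertain. Hspa1b was 1.71, 2.88 and 5.42 FPKM in the N-mDC samples, 2.21, 3.52 and 0.869 in the T-DC samples and 1.72, 2.57 and 2.23 in the T-mDC samples, and its groups overlapped. Dnajb5, an Hsp40 family member, ranged over 5.86 to 6.42 against 0.599 to 2.95 FPKM and Unc45a, a myosin chaperone, over 12.4 to 15.2 against 6.23 to 6.64 FPKM. The heat shock element letters GAANNTTC, which also read the same on both strands, were present in 5 of 54 promoters (9.26%) and in 9.04% of all. In Hspa1a they begin 104 bases before the start (chr17:34972157-34972406, minus strand, capitals).
Hspa1a: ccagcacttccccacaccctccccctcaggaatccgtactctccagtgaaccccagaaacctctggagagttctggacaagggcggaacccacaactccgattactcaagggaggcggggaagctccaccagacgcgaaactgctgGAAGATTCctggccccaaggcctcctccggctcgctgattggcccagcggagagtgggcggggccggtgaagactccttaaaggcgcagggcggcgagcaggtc

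Inflammatory and interferon genes numbered 9. Il1b (ENSMUSG00000027398, chr2:129364570-129371139 on mm10), the precursor of the cytokine IL-1β, was 858, 638 and 602 FPKM in N-mDCs, against 147, 131 and 59.4 in T-DCs and 159, 128 and 123 in T-mDCs. It averaged 699 ± 138 FPKM (SD, n = 3) in normal cells, 113 ± 46.8 in T-DCs and 136 ± 19.5 in T-mDCs, and the leukemic groups overlapped. Irf1, an activator of interferon-stimulated genes, was 64.8, 75.6 and 83.9 FPKM in N-mDCs, with 29.9, 23.6 and 12.6 in T-DCs and 29.2, 43.0 and 42.6 in T-mDCs. Irf1 lay just inside the ratio of 1.5, set by N-mDC sample 1 and T-mDC sample 2. Ifit3, an antiviral protein induced by type I interferon, was 29.5, 26.4 and 35.4 FPKM in the N-mDC samples, 3.52, 6.54 and 15.4 in the T-DC samples and 4.13, 5.604 and 5.80 in the T-mDC samples. Here T-DC sample 3 was the highest leukemic sample and stood apart from the other 5, which lay at or below 6.55 FPKM. Ifit3b, a near-identical copy, was 4.32, 4.16 and 6.47 FPKM in N-mDCs, against 0.419, 1.03 and 4.35 in T-DCs and 0.503, 0.776 and 1.14 in T-mDCs, so the level of either gene is uncertain. The interferon response letters, GAAA repeated after 2 bases of any kind and searched on both strands, were present in 4 of 54 promoters (7.41%) and in 3.99% of all. Ifit3 holds them on the opposite strand, as TTTC repeated, at 156 and 122 bases before its start (chr19:34583279-34583528, plus strand, capitals).
Ifit3: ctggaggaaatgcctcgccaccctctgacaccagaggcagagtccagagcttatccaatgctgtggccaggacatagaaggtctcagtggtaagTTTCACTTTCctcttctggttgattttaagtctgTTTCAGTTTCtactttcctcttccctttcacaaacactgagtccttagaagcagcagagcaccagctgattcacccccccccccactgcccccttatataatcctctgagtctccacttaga
Gbp8, an interferon-induced GTPase, was 31.0, 28.3 and 36.5 FPKM in N-mDCs, with 13.2, 7.01 and 3.75 in T-DCs and 9.0, 14.6 and 13.99 in T-mDCs. Tnfsf14, the ligand LIGHT of the TNF family, was 4.02, 5.68 and 5.49 FPKM in the N-mDC samples, 0.453, 1.15 and 0.535 in the T-DC samples and 1.00, 1.32 and 1.53 in the T-mDC samples. Il27ra, the receptor chain for IL-27, was 4.94, 5.15 and 6.46 FPKM in N-mDCs, against 1.09, 2.92 and 1.54 in T-DCs and 2.53, 2.84 and 2.99 in T-mDCs. In all 3 genes the leukemic groups overlapped. Gbp8 has a close relative, Gbp9, between which reads could be split, and its level is uncertain. Mefv, which encodes the inflammasome sensor pyrin, ranged over 25.03 to 45.7 against 4.92 to 15.3 FPKM. Ccr3, an eotaxin receptor, ranged over 28.6 to 49.5 against 3.36 to 18.3 FPKM and Ptgis, the prostacyclin synthase, over 8.26 to 21.1 against 1.16 to 5.18 FPKM.

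Sterol and lipid genes formed a group of 5. Insig1, an ER protein that holds back SREBP and HMG-CoA reductase, was 26.6, 36.5 and 57.4 FPKM in N-mDCs, with 12.1, 12.1 and 7.45 in T-DCs and 12.01, 15.3 and 15.01 in T-mDCs. It is a target of SREBP, and its leukemic samples overlapped between the groups. Msmo1, an oxidase of cholesterol synthesis, was 3.79, 5.22 and 4.99 FPKM in the N-mDC samples, 2.29, 2.51 and 2.06 in the T-DC samples and 2.38, 2.32 and 2.48 in the T-mDC samples. Hilpda, an inhibitor of lipolysis on lipid droplets, was 52.3, 87.8 and 59.0 FPKM in N-mDCs, against 15.3, 6.26 and 7.76 in T-DCs and 10.8, 11.8 and 10.1 in T-mDCs. Hilpda was the most separated of the 5, with an N-mDC mean 6.80 times that of T-DCs and 6.09 times that of T-mDCs. Dgat1, which makes triglycerides, ranged over 26.4 to 33.2 against 6.46 to 11.6 FPKM. The SREBP letters TCACNCCAC were present in 0 of the 54 promoters and in 1.44% of all.

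Transport and mitochondrial genes numbered 6. Slc25a33, a mitochondrial pyrimidine nucleotide carrier, was 12.98, 16.03 and 17.8 FPKM in N-mDCs, with 4.20, 2.87 and 3.11 in T-DCs and 2.78, 1.10 and 1.30 in T-mDCs. It was the only one of the 81 genes with every T-DC sample above every T-mDC sample. Slc2a3, the glucose transporter GLUT3, was 16.6, 12.3 and 18.1 FPKM in the N-mDC samples, 1.86, 5.40 and 5.62 in the T-DC samples and 3.19, 5.66 and 5.63 in the T-mDC samples. T-DC sample 1 was the lowest and T-mDC sample 1 the next. Coq10b, a coenzyme Q binding protein, was 29.1, 25.3 and 30.8 FPKM in N-mDCs, against 4.33, 6.12 and 4.32 in T-DCs and 7.24, 9.06 and 10.1 in T-mDCs. Bco2, a mitochondrial carotenoid oxygenase, was 5.41, 5.28 and 5.93 FPKM in N-mDCs, with 1.98, 1.07 and 0.902 in T-DCs and 1.35, 1.66 and 1.59 in T-mDCs. For Coq10b all T-DC samples lay below all T-mDC samples, and for Bco2 they overlapped. Got1, the cytosolic aspartate aminotransferase, ranged over 31.5 to 34.6 against 7.62 to 16.7 FPKM and Trf, transferrin, over 6.72 to 20.7 against 0.606 to 4.29 FPKM. The highest Trf value came from N-mDC sample 2 alone.

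The largest group held 13 genes that lymphocytes express. Cd4, the T cell co-receptor that also marks a subset of splenic cDC2, was 59.96, 34.0 and 43.1 FPKM in the N-mDC samples, 11.8, 3.09 and 4.72 in the T-DC samples and 10.9, 14.2 and 13.4 in the T-mDC samples. Cd8b1, the β chain of the CD8 co-receptor, was 6.47, 17.9 and 15 FPKM in N-mDCs, against 1.81, 2.87 and 1.24 in T-DCs and 1.2, 2.20 and 1.503 in T-mDCs. For both genes the leukemic groups overlapped. Cd8a, the α chain, is also carried by cDC1 and was 48.9, 41.4 and 32.0 FPKM in N-mDCs, with 9.50, 4.99 and 2.35 in T-DCs and 44.2, 91.9 and 92.9 in T-mDCs. Its T-mDC samples 2 and 3 were above every N-mDC sample, so it is not among the 81. Il2rb, the IL-2 and IL-15 receptor β chain of NK and T cells, was 10.5, 18.2 and 37.0 FPKM in the N-mDC samples, 0.313, 5.87 and 1.12 in the T-DC samples and 3.24, 1.03 and 0.862 in the T-mDC samples. T-DC sample 2 and T-mDC sample 1 were the high samples of their groups. Ctsw, a protease of cytotoxic cells, was 7.27, 18.8 and 20.7 FPKM in N-mDCs, against 0.634, 2.62 and 0.428 in T-DCs and 0.817, 1.76 and 1.24 in T-mDCs. S1pr1, the receptor that guides lymphocyte egress, was 12.2, 9.34 and 11.7 FPKM in N-mDCs, with 0.990, 2.92 and 1.21 in T-DCs and 3.74, 2.004 and 1.75 in T-mDCs. For S1pr1 the same samples, T-DC 2 and T-mDC 1, were again the highest of their groups. Acap1, an Arf6 regulator abundant in lymphocytes, was 31.7, 39.1 and 35.5 FPKM in the N-mDC samples, 4.55, 8.80 and 4.79 in the T-DC samples and 9.81, 11.7 and 11.7 in the T-mDC samples. Bank1, a B cell scaffold, was 11.7, 9.75 and 13.8 FPKM in N-mDCs, against 5.496, 2.59 and 1.58 in T-DCs and 6.02, 2.27 and 2.13 in T-mDCs. Acap1 separated the leukemic groups with all T-DC samples lower, and Bank1 did not.

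The other 6 genes of that group were Cd2 (12.1 to 22.8 against 0.641 to 7.60 FPKM), Cd69 (10.7 to 12.8 against 1.48 to 4.53 FPKM), Gimap3 (12.3 to 18.3 against 0.412 to 7.39 FPKM), Gimap6 (17.3 to 25 against 1.87 to 8.98 FPKM), Ralgps2 (3.14 to 3.51 against 0.776 to 1.59 FPKM) and Carmil2 (4.13 to 5.14 against 0.794 to 2.5 FPKM). Gimap3 and Gimap6 are GTPases of lymphocyte survival, Gimap3 has a close relative, Gimap5, that makes its level uncertain, and Cd69 is an early activation marker. Summed over the 13 genes, N-mDC samples 1 to 3 held 200, 229 and 260 FPKM, the T-DC samples 31.5, 57.7 and 23.1 FPKM and the T-mDC samples 64.6, 45.8 and 42.9 FPKM. All 6 leukemic sums lay below the normal ones, which the rule on each gene required. T-DC sample 2 was the highest T-DC sample in 11 of the 13, and T-mDC sample 1 the highest T-mDC sample in 9. Over the 7422 genes with the same floor the shares were 14.9% for T-DC sample 2 and 41.2% for T-mDC sample 1. Over the AP-1, cAMP and CREB-linked genes the order was different. Their median level, as a percent of the N-mDC mean, was 38.0, 19.8 and 12.5 in T-DCs, in order of samples, and 29.3, 39.8 and 39.6 in T-mDCs. For the lymphocyte-associated genes it was 12.8, 26.8 and 10.4 in T-DCs and 33.8, 18.1 and 15.8 in T-mDCs.

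**Figure D3:**
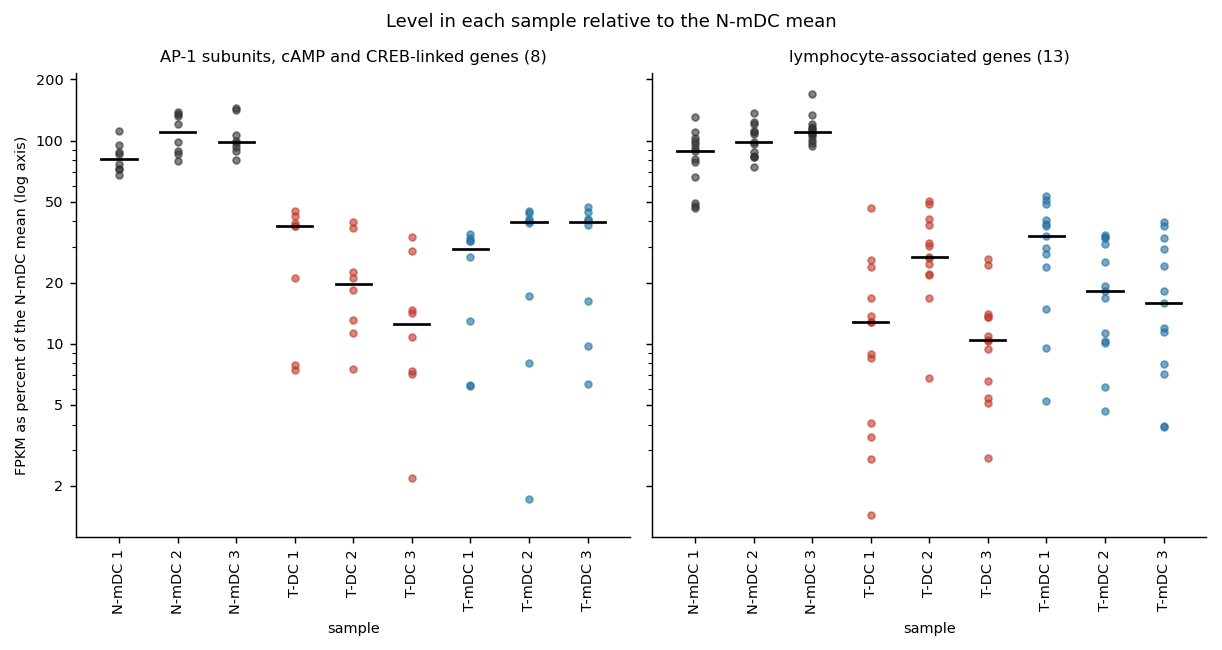
Level of each gene in each sample as a percent of its N-mDC mean (log axis); points are genes and black bars medians, for the 8 AP-1, cAMP and CREB-linked genes (left) and the 13 lymphocyte-associated genes (right). On the left the lowest leukemic median is T-DC sample 3 (12.5%) and on the right T-DC samples 3 and 1 (10.4% and 12.8%), and T-mDC sample 1 is the lowest T-mDC sample on the left (29.3%) and the highest on the right (33.8%).

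Of the 15 NK and cytotoxic markers that are not among the 81, every N-mDC sample was above all leukemic samples in 10, against 6.66% of all tested genes. These 10 include Txk, which was under 1 FPKM in every sample and so is not among the tested genes. Prf1, Klrb1c, Eomes and Ncr1, also among the 10, reached 1 FPKM in 3 samples only through the N-mDCs. Ncr1, which encodes the NK receptor NKp46, was 2.99, 5.12 and 10.98 FPKM in N-mDCs, with 0.109, 0.838 and 0.0428 in T-DCs and 0.0344, 0.605 and 0.318 in T-mDCs. The 16 NK markers together summed to 706 to 799 FPKM in N-mDCs. T-DCs had 71.6 to 171 FPKM and T-mDCs 477 to 751 FPKM, of which Ccl5 made up most in T-mDCs. Ccl5 was 629 and 571 FPKM in T-mDC samples 2 and 3, above every N-mDC sample (at most 471 FPKM). S1pr5 went the other way in T-DCs, at 136, 51.8 and 47.4 FPKM against 3.43, 6.66 and 6.10 in N-mDCs. It was the highest of the NK markers in every T-DC sample. Among T-mDCs only sample 1 had more S1pr5 than every N-mDC sample. Every N-mDC sample was also above all leukemic samples for 6 of 11 B cell markers. Of those 6, Cr2 reached 1 FPKM in 3 samples only through the N-mDCs. The summed B cell markers did not separate the groups, with 878 to 3814 FPKM in N-mDCs, up to 3761 FPKM in T-DCs and up to 1924 FPKM in T-mDCs. Among 14 T-lineage markers only Cd5 had every N-mDC sample above all leukemic samples, and all 16 markers of that list summed to 150 to 184 FPKM in N-mDCs and to 232 and 229 FPKM in T-mDC samples 2 and 3, above every normal sample. Cd3e was at most 1.52 FPKM in any sample, and no marker of these 3 lists was at 0 in all samples of a group. Of the 10 pDC markers, 7 were above all leukemic samples in every N-mDC sample. Cd300c, 1 of these 7, met the rule on values, which required this, and left the 81 only by its symbol. Pacsin1, also among the 7, reached 1 FPKM in 3 samples only through the N-mDCs. Of 9 cDC2 markers beside Cd4, Cd209a, Irf4 and Clec10a were higher in every N-mDC sample than in all leukemic samples. Mgl2 went the other way in T-mDCs, at 6.10 to 6.67 FPKM against 2.21 to 3.08 in N-mDCs, and was 0.267 to 0.863 in T-DCs. Sirpa (404 FPKM) and Itgam (19.0 FPKM) in T-DC sample 1 exceeded every N-mDC sample (at most 244 and 10.4 FPKM). Cd209a, a lectin of cDC2, was 84.8, 67.0 and 77.9 FPKM in the N-mDC samples, 4.06, 3.26 and 0.832 in the T-DC samples and 16.4, 19.1 and 20.4 in the T-mDC samples. The 10 cDC2 markers, Cd4 included, summed to at least 510 FPKM in every N-mDC sample and to at most 463 FPKM in any T-DC and 354 FPKM in any T-mDC sample. Of the 9 cDC1 markers, 0 had every N-mDC sample above all leukemic samples. By sample, their sums were 588, 888 and 894 FPKM for T-mDCs and 503, 460 and 385 FPKM for N-mDCs. Each T-mDC sum thus exceeded every N-mDC sum. T-DCs had the lowest cDC1 sums, at 268, 113 and 63.9 FPKM. The part of NK cells, B cells, pDCs, cDC1 and cDC2 in the lymphocyte-associated genes was not tested.

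Genes of membrane traffic and cell shape numbered 8. Cytip, which controls adhesion through cytohesin, was 210.4, 141 and 219 FPKM in N-mDCs, against 91.9, 58.8 and 30.7 in T-DCs and 72.9, 81.4 and 82.7 in T-mDCs. Vps37b, a subunit of the ESCRT-I complex, was 46.1, 52.0 and 79.6 FPKM in N-mDCs, with 17.0, 11.7 and 9.80 in T-DCs and 11.5, 13.7 and 14.4 in T-mDCs. Gabarapl1, an autophagosome protein of the ATG8 family, was 47.5, 42.9 and 40.8 FPKM in the N-mDC samples, 20.2, 26.96 and 27.1 in the T-DC samples and 17.6, 21.9 and 22.2 in the T-mDC samples. Gabarapl1 was the least lowered of all 81 genes in T-DCs (1.77-fold). Plekhg6, a guanine nucleotide exchange factor, was 3.90, 3.37 and 4.72 FPKM in N-mDCs, against 1.27, 0.4498 and 0.399 in T-DCs and 0.642, 0.768 and 0.577 in T-mDCs. Mcoln2, a lysosomal cation channel, was 3.11, 3.25 and 3.77 FPKM in N-mDCs, with 1.83, 1.31 and 0.441 in T-DCs and 1.51, 0.315 and 0.281 in T-mDCs. For Mcoln2 sample 1 was the highest of both leukemic groups. Rilpl2 (48.5 to 110.3 against 12.5 to 23.8 FPKM), S100a10 (31.9 to 59.4 against 8.21 to 16.6 FPKM) and Mpzl1 (11.4 to 15.01 against 1.41 to 6.21 FPKM) were the others.

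Matrix and secreted proteins formed a group of 4. Hs3st1, a heparan sulfate sulfotransferase, was 12.8, 13.8 and 15.7 FPKM in the N-mDC samples, 3.43, 1.91 and 0.886 in the T-DC samples and 3.52, 0.696 and 0.975 in the T-mDC samples. Col14a1, a collagen, was 5.42, 8.35 and 8.37 FPKM in N-mDCs, against 1.80, 0.837 and 0.291 in T-DCs and 0.695, 0.679 and 0.519 in T-mDCs. In both genes sample 1 was the highest T-DC sample, and T-mDC samples 2 and 3 were below 1 FPKM. Prg3, a granule protein of eosinophils, ranged over 4.41 to 7.53 against 0.612 to 1.89 FPKM, with 9 reads in its lowest leukemic sample, and Lynx1, a modulator of nicotinic receptors, over 3.03 to 4.005 against 0.551 to 1.77 FPKM.

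Signal regulators included 4 kinases and 4 negative regulators. Stk17b (DRAK2), a kinase of the death-associated protein family, was 356, 222 and 285 FPKM in N-mDCs, with 111, 81.4 and 40.1 in T-DCs and 98.6, 114 and 116 in T-mDCs. Pim3, a serine/threonine kinase induced by cytokines, was 85.8, 122 and 118 FPKM in the N-mDC samples, 38.1, 26.2 and 16.4 in the T-DC samples and 43.1, 53.7 and 53.6 in the T-mDC samples. T-DC sample 3 was the lowest sample for both. Nuak2 (60.7 to 69.7 against 11.4 to 31.4 FPKM) and the Tec family kinase Tec (8.76 to 10.9 against 1.72 to 5.43 FPKM) were the other kinases. Spry2, an inhibitor of receptor tyrosine kinase signaling to ERK, was 5.18, 8.30 and 15.7 FPKM in N-mDCs, against 0.749, 2.07 and 1.07 in T-DCs and 0.838, 0.744 and 0.573 in T-mDCs. Its normal samples differed from each other by about 3-fold, and its leukemic samples stayed at or below 2.07 FPKM. Neurl3, an E3 ubiquitin ligase, was 204, 155 and 156 FPKM in N-mDCs, with 89.1, 33.8 and 30.4 in T-DCs and 42.8, 35.9 and 34.3 in T-mDCs. Nrros, an anchor of latent TGF-β, was 148, 156 and 149.8 FPKM in the N-mDC samples, 87.2, 56.0 and 38.1 in the T-DC samples and 84.4, 88.7 and 91.4 in the T-mDC samples. Nrros was the least lowered of the 81 genes in T-mDCs (1.71-fold) although its normal samples differed by under 10%. Zc3h12a, the RNase regnase-1 that degrades cytokine mRNA, ranged over 53.7 to 76.7 against 10.4 to 30.5 FPKM.

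Nuclear and translation genes numbered 6. Ifrd1, a transcriptional coregulator, was 66.6, 64.8 and 97.2 FPKM in N-mDCs, against 10.4, 12.9 and 8.71 in T-DCs and 12.4, 24.5 and 26.3 in T-mDCs. It was lowered more in T-DCs (7.13-fold) than in T-mDCs (3.62-fold), though T-mDC sample 1 overlapped the T-DC samples. Ppp1r10, a nuclear regulator of protein phosphatase 1, ranged over 27.9 to 60.9 against 8.36 to 15.8 FPKM and Gtf2b, the general factor TFIIB, over 18.9 to 21.9 against 9.17 to 11.3 FPKM. Elmsan1 (28.8 to 69.4 against 12.03 to 18.3 FPKM), the DNA glycosylase Neil1 (16.5 to 18.7 against 3.34 to 7.90 FPKM) and Impact (19.7 to 32.0 against 4.91 to 12.6 FPKM), an inhibitor of the kinase GCN2, completed the group. No common function was assigned to Tmem132a (6.19 to 9.94 against 0.793 to 3.01 FPKM), Zcchc24 (5.83 to 9.68 against 1.19 to 3.72 FPKM), CAAA01147332.1 (40.5 to 59.5 against 9.49 to 24.7 FPKM) on the unplaced scaffold JH584295.1 and Xlr4a (3.96 to 4.20 against 1.16 to 2.27 FPKM). Xlr4a has near-identical copies, so its level is uncertain.

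Both leukemic groups were compared gene by gene within the 81, where the window kept the ratio of their means between 0.5 and 2. The T-DC mean was below the T-mDC mean in 58 genes and above it in 23, with a median ratio of 0.810. Samples overlapped between T-DCs and T-mDCs in 68 genes. T-DCs lay wholly below in 12 (Acap1, Coq10b, Prg3, Got1, Trp53i13, Trp53inp2, Zc3h12a, Xlr4a, Gtf2b, Pim3, Ptgis and Sesn2) and wholly above in 1, Slc25a33. Over the 7422 genes, 1333 lay wholly below and 1338 wholly above. T-DC sample 3 was the lowest T-DC sample in 58 of the 81 (71.6%) and in 44.5% of the 7422. Among N-mDCs, sample 3 was the highest in 43 of the 81 (53.1%) and in 25.6% of the 7422, and sample 1 the lowest in 49 (60.5%) and in 25.4%.

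**Figure D4:**
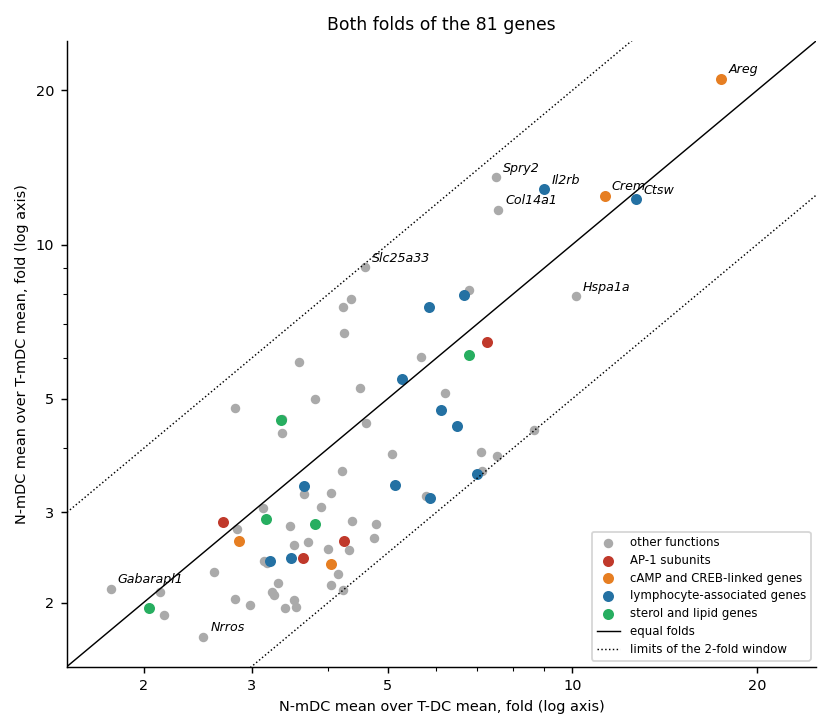
Fold of the N-mDC mean over the T-DC mean (horizontal) and over the T-mDC mean (vertical) for the 81 genes, both on log axes; each point is a gene and the dotted lines are the limits set by the window. Points spread along the line of equal folds from Nrros and Gabarapl1 at the lower left to Areg at 17.5 and 21.1, and Slc25a33 and Spry2 lie nearest to the upper limit among the labeled genes.

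Lists of pathway genes show what else differed in the same families. In the limma fit across 12746 genes, 1318 (10.3%) were lower and 778 (6.10%) higher in T-DCs than in N-mDCs at an adjusted p under 0.05. In T-mDCs 194 (1.52%) were lower and 88 (0.690%) higher than in N-mDCs by the same limma test. Both comparisons share the N-mDC samples. Below, a value in parentheses is the limma log2 difference from N-mDCs ± SE on the scale of log2(FPKM + 1), followed by the adjusted p. The 81 genes are left out of all counts.

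Among 19 tested AP-1 and EGR immediate early genes, 11 were lower in T-DCs and 0 higher, and 0 passed in either direction in T-mDCs. Their median log2 difference was -1.67 in T-DCs and -1.04 in T-mDCs, against 0.05 and 0.03 over all genes. Fos itself was 951, 1469 and 1253 FPKM in N-mDCs, with 738, 244 and 180.4 in T-DCs and 437, 691 and 688 in T-mDCs. It was lower in T-DCs (-1.91 ± 0.49, limma adjusted p = 0.0316) and did not pass in T-mDCs (-1.02 ± 0.49, limma adjusted p = 0.333). Zfp36, which encodes the mRNA decay factor tristetraprolin, was also lower in T-DCs (-1.63 ± 0.44, limma adjusted p = 0.0384) and did not pass in T-mDCs (-1.04 ± 0.44, limma adjusted p = 0.286). Of 13 tested NR4A receptors and CREB targets, 7 were lower in T-DCs and 2 in T-mDCs, and none was higher in either group. The 2 in T-mDCs were Nr4a1 and Nr4a2, of which Nr4a2 was named after its values were seen. Nr4a1, a nuclear receptor and immediate early gene, was 1183, 1293 and 1435 FPKM in the N-mDC samples, 1046, 408 and 302 in the T-DC samples and 392.3, 237 and 236 in the T-mDC samples. It was lower in T-mDCs (-2.21 ± 0.43, limma adjusted p = 0.0422) but missed the threshold in T-DCs (-1.36 ± 0.43, limma adjusted p = 0.0631), where sample 1 was close to the normal samples. Ppp1r15a (GADD34), which lets translation resume after stress, passed in neither group (limma adjusted p = 0.447 in T-DCs and 0.332 in T-mDCs).

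Of 15 tested cholesterol genes, 6 were lower in T-DCs and 0 in T-mDCs. Srebf2, the master regulator of sterol synthesis, was lower in T-DCs (-1.10 ± 0.20, limma adjusted p = 0.00896) and did not pass in T-mDCs (-0.20 ± 0.20, limma adjusted p = 0.650), and Mvd, an enzyme of that pathway, passed in neither group. Of 14 heat shock genes, 1 was lower and 2 were higher in T-DCs, and 0 passed in T-mDCs. The higher genes were Bag3 (1.22 ± 0.30, limma adjusted p = 0.0287) and Hspa4l (1.48 ± 0.39, limma adjusted p = 0.0353), opposite in direction to Hspa1a. Hsp90ab1 and Hspa8, the most abundant of that list, passed in neither group. Of 18 genes of the unfolded protein response, 3 were lower in T-DCs and 0 in T-mDCs, with the ER chaperone Hspa5 among the 3 (-0.83 ± 0.22, limma adjusted p = 0.0346), a gene that both lists hold. Of 19 glycolysis genes, 1 was lower and 2 were higher in T-DCs, namely Tpi1 (1.28 ± 0.28, limma adjusted p = 0.0188) and Pgam1 (1.09 ± 0.29, limma adjusted p = 0.0346), whereas Aldoa and Ldha did not pass.

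Of 24 interferon genes, 7 were lower and 1, Zbp1 (0.70 ± 0.20, limma adjusted p = 0.0487), was higher in T-DCs, and 3 were lower in T-mDCs. Those lower in T-mDCs were Bst2 (-2.13 ± 0.34, limma adjusted p = 0.0201), Ifi27l2a (-2.37 ± 0.48, limma adjusted p = 0.0474) and Mx2, the last named after its values were seen. Bst2, which tethers viruses to the cell surface and marks pDCs, was also lower in T-DCs (-1.26 ± 0.34, limma adjusted p = 0.0372), as was Ifi27l2a (-1.94 ± 0.48, limma adjusted p = 0.0299). Of 12 guanylate binding and related GTPases, 2 were lower and 1, Gbp7 (1.32 ± 0.35, limma adjusted p = 0.0374), was higher in T-DCs, and 0 passed in T-mDCs. The abundant Gbp2 and Igtp passed in neither group. Of 14 DC cytokines, 4 were lower in T-DCs, Ltb (-1.62 ± 0.34, limma adjusted p = 0.0154) among them and Tgfb1 not among them. In T-mDCs 1 cytokine was lower, Csf1, named after its values were seen, and 1 was higher, Il6. Il6 was 1.61, 1.69 and 5.26 FPKM in N-mDCs, against 0.897, 1.12 and 0.298 in T-DCs and 12.4, 14.6 and 14.3 in T-mDCs (2.06 ± 0.35 in T-mDCs, limma adjusted p = 0.0243), the opposite of Il1b in T-mDCs.

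**Figure D5:**
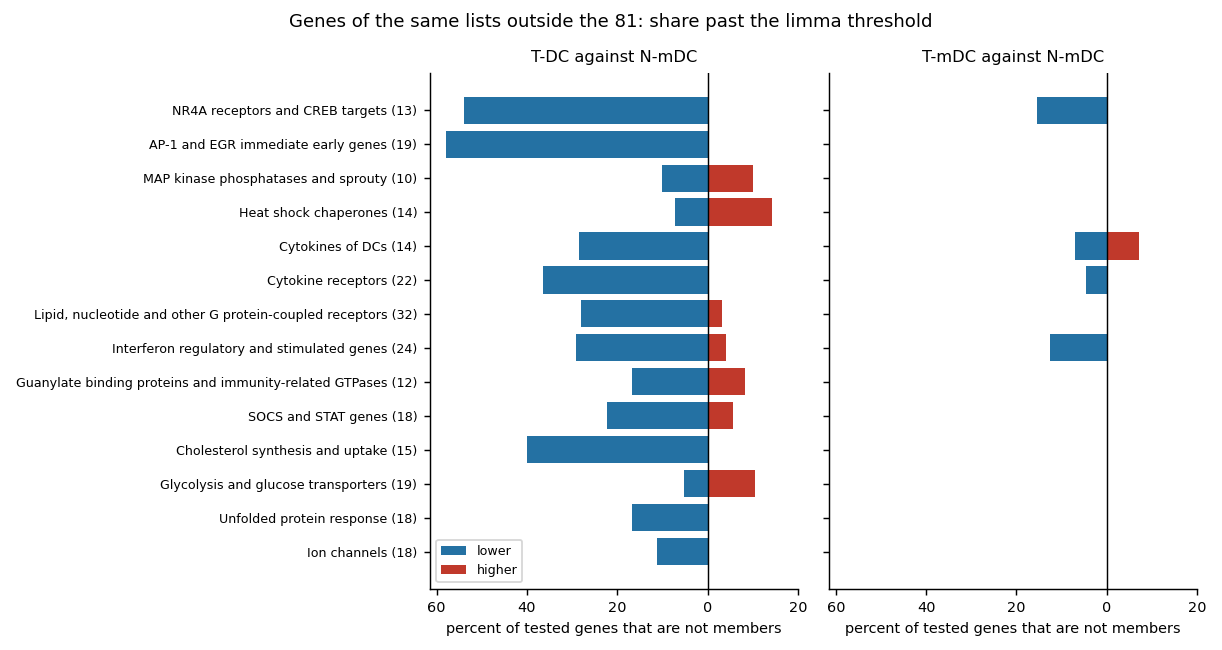
Share of the tested genes of each of the 14 lists that hold a gene of the 81, leaving those genes out, that passed the limma threshold as lower (blue, to the left) or higher (red, to the right) in T-DCs (left panel) and in T-mDCs (right panel) against N-mDCs; the number of genes stands in parentheses. Of these 14 lists, the AP-1 and EGR list has the longest lower bar in T-DCs (11 of 19) and none in T-mDCs.

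In T-DCs, other lists with a gene among the 81 had smaller shares of lower genes than the AP-1 and NR4A lists, a difference that was not tested. Some lists without such a gene had shares as large or larger in T-DCs. Lower there were 10 of 13 genes of classical MHCII presentation, 8 of 13 chemokine receptors and 12 of 21 co-stimulatory and co-inhibitory molecules. Of these, 1 co-stimulatory or co-inhibitory molecule was higher and 0 of the others. The rest of the lists without such a gene had smaller shares. In T-mDCs the AP-1 list had 0 of 19 lower, against 3 of 24 for the interferon list. Of 22 cytokine receptors, 8 were lower in T-DCs and 1, Il1r2, in T-mDCs (named after its values were seen), while the abundant Csf1r and Csf2ra passed in neither group. Of 32 G protein-coupled receptors, 9 were lower in T-DCs, among them Gpr132 (-3.40 ± 0.34, limma adjusted p = 0.000950) and P2ry10 (-4.13 ± 0.48, limma adjusted p = 0.00161). Fpr2, a receptor for formyl peptides, was the 1 that was higher (2.35 ± 0.48, limma adjusted p = 0.0144), and 0 passed in T-mDCs. Of 18 SOCS and STAT genes, 4 were lower in T-DCs, Jak2 (-1.24 ± 0.36, limma adjusted p = 0.0487) among them, 1 was higher, Socs3 (1.34 ± 0.38, limma adjusted p = 0.0435), and 0 passed in T-mDCs. Pim1, a relative of Pim3, passed in neither group. Of 10 MAP kinase phosphatases and sprouty genes, relatives of Spry2, 1 was lower and 1, Dusp16 (1.83 ± 0.45, limma adjusted p = 0.0271), higher in T-DCs, whereas 0 passed in T-mDCs and Dusp1 and Dusp5 passed in neither group. Of 18 ion channel genes, 2 were lower in T-DCs, Cacnb3 (-4.47 ± 0.48, limma adjusted p = 0.00136) being 1 of them and Kcnk6 not, and 0 in T-mDCs.

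Over all 28 lists, 472 tested genes were not among the 81. Of these, 141 were lower and 20 higher in T-DCs, and 17 were lower and 4 higher in T-mDCs, with median log2 differences of -0.53 and -0.26. Of 24 calls of the named genes outside the 81, leaving aside those named after their values were seen (Nr4a2, Mx2, Csf1 and Il1r2), 4 were kept when each of the 9 samples was left out in turn, those of Srebf2, Gpr132, P2ry10 and Cacnb3 in T-DCs. The other 20 of the 24 were lost without at least 1 sample, with their direction kept. For Fos in T-DCs the call was lost without any 1 of 7 samples, all but T-DC sample 1 and T-mDC sample 1, with log2 differences of -2.52 to -1.5. For Nr4a1 in T-mDCs it was lost without any 1 of 6, all but T-DC samples 1 and 3 and T-mDC sample 1 (-2.45 to -2.09), and for Il6 without N-mDC sample 1 or 2 or T-mDC sample 2 or 3 (1.84 to 2.48). The count for T-mDCs turned on single samples too. Over all lists, the 81 included, 29 genes were lower in T-mDCs, against 3 without T-mDC sample 2 or without sample 3, 5 without N-mDC sample 3, 6 without N-mDC sample 2 and 85 without T-DC sample 1. Averaging T-mDC samples 2 and 3 into 1 sample also gave 3.

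The selection itself turned on a few samples and on the scale. Just inside the ratio of 1.5 lay Msmo1 (1.5097), Gabarapl1 (1.5067) and Irf1 (1.5048), and just outside it lay Dab2ip (1.4999), Tgm2 (1.4973) and Cyp51 (1.4932). Tgm2 encodes a transglutaminase and Cyp51 an enzyme of cholesterol synthesis, like Msmo1. With FPKM rescaled to TPM, which moved the median log2 difference of all genes from 0.03 to 0.21 in T-mDCs and from 0.05 to -0.07 in T-DCs, 67 genes met the rule and 45 of them were among the 81. The count was 141 without N-mDC sample 1, which held the lowest normal value for most of the genes, and 133 without T-DC sample 1, of which 64 were among the 81. A ratio of at least 2 was reached by 32 genes and a ratio of at least 3 by 9 genes, Areg, Crem, Hspa1a, Il1b, Hs3st1, Fosl2, Hilpda, Slc25a33 and Col14a1.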

How the data were processed

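Gene levels are the FPKM values of 1 table that the authors deposited, with a gene length for each gene. The processing notes name the genome build mm10, and the aligner, counter and annotation are not given in the sources used here. FPKM times gene length and depth gave whole reads within 5.75e-05 of a read, with 15360815 to 18440913 reads on genes per sample. The 81 genes were selected by the rule stated at the start of the report, and the genes and gene lists were chosen with earlier results of these data known. limma 3.58.1 in R 4.3.3 was fitted to log2(FPKM + 1) of all 3 groups for genes with at least 1 FPKM in at least 3 samples (12746 genes), with a trend on the mean, Benjamini-Hochberg adjustment over all of them and a threshold of 0.05, and the code was tested on simulated data. With 3 samples a group, p-values measure only the spread between these samples.

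Genes of the 81 were named with every sample where they belonged to a list, were among the 20 with the largest ratio or the 10 with the highest N-mDC mean, or were among the 3 nearest to the ratio of 1.5. All others are given once, by range, grouped by known function, and 1 of the 81 is counted but not reported by name here. Genes of a list outside the 81 were named where they passed in the opposite direction, up to 3 a list, or were among the 2 of highest mean level. Exceptions are stated where they occur, and Cd8a, Cd209a, Irf4, Clec10a, Mgl2, Sirpa, Itgam, Ncr1, S1pr5, Ccl5, Cd3e, Cd5, Hspa1b and Ifit3b were also added beside results they touch. So were Txk, Prf1, Klrb1c, Eomes, Cr2, Pacsin1 and Cd300c. Alternatives were another pseudocount, filter, scale, window, floor or ratio, array weights, a replicate block, voom on the recovered reads, and each sample left out. Promoters came from RefSeq (GRCm38.p6). Tables and figures were made in Python 3.11.15 with NumPy 2.4.6, pandas 2.3.3 and matplotlib 3.10.9.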

Additional observations from a re-analysis of the deposited data

How the results depend on the processing

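The number of genes that met the selection rule was 158 with a looser ratio, 32 with a ratio of 2, 48 with the window narrowed to 1.5-fold, 143 with no window, and 77 to 141 with 1 sample left out. Genes lower in T-DCs numbered 1318, but 873 with a filter of 5 FPKM, 808 with only the compared groups fitted, 4165 with array weights (whose estimation stopped before convergence) and 748 to 2419 with 1 sample left out, the extremes being without N-mDC sample 3 and without T-DC sample 1. Genes lower in T-mDCs numbered 194, but 77 with a pseudocount of 0.1, 80 with a filter of 5 FPKM, 109 in TPM, 490 with only the compared groups, 1955 with array weights, 105 with voom on recovered reads, 15 with T-mDC samples 2 and 3 averaged, and 16 to 581 with 1 sample left out, the extremes being without T-mDC sample 3 and without T-DC sample 1. List genes lower in T-DCs numbered 165 and 281 with array weights, and 111 to 240 with 1 sample left out. List genes lower in T-mDCs numbered 29, but 18 with a pseudocount of 0.1, 17 with no filter, 19 with a filter of 5 FPKM, 16 in TPM, 83 with only the compared groups, 187 with array weights, 3 with T-mDC samples 2 and 3 averaged, and 3 to 85 with 1 sample left out. The cause of these shifts was not tested.

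A replicate block, with the replicate number of the labels as a term, gave 943 genes lower in T-DCs and 60 in T-mDCs, and 134 and 11 of the list genes. Deviations of N-mDC samples from their group mean correlated at -0.47 to 0.27 with those of leukemic samples of the same number. T-DCs were not compared with T-mDCs in this way, so whether the numbers pair the leukemic samples was not tested. Of 1478 values of named list genes under the alternatives, 1239 kept their side of the threshold, 185 lost it, 54 gained it and 0 reversed. Of 972 values of the 81 genes, 918 moved by less than 1 SD of the log2 N-mDC samples and 0 reversed. The rule alone keeps these genes from reversing when samples are left out or averaged. Depth limits Areg, Ctsw and Prg3, which had under 10 reads in at least 1 leukemic sample.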
